A study of Saccharomyces cerevisiae with 2 samples.

Results

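Transcript levels of 10 nuclear genes for cytochrome c and cytochrome c oxidase were compared between ZGR3, a mutant derived from the yeast strain ZTW1, and ZTW1 itself, labelled a wild type. The genes were taken by name, with no threshold on their values, although earlier results of these data were known when the set was drawn up. They are CYC1 and CYC7 for the isoforms of cytochrome c, and COX4, COX5A, COX5B, COX6, COX7, COX8, COX9 and COX12 for subunits of the oxidase. All 10 were found among the 5659 genes with reads in at least 1 library. Both strains are labelled as used for bioethanol. Each strain gave 1 library of poly(A) RNA, from cells inoculated at an OD600 of 0.05 into 25 mL of the rich medium YPD (20 g/L glucose) and harvested in early stationary phase. The nature of the ZGR3 mutation is not stated in the labels.

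Cytochrome c is a small heme protein of the mitochondrial intermembrane space that carries electrons from complex III of the respiratory chain to complex IV, cytochrome c oxidase. The oxidase passes them to oxygen, forms water and pumps protons across the inner membrane. Its catalytic core is made from mitochondrial DNA (COX1, COX2 and COX3), and the nuclear subunits described here surround that core. In budding yeast a pair of these proteins exists as isoforms from separate genes. CYC1 and COX5A are the forms of cells with oxygen and heme, and CYC7 and COX5B are favoured when oxygen is scarce. Glucose represses many of the aerobic genes, and the Hap2, Hap3, Hap4 and Hap5 proteins activate them when cells turn to respiration. Hap1 activates with heme, and Rox1 represses hypoxic genes, COX5B among them.

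Reads assigned to genes came to 4.61 M in ZGR3 and 4.66 M in ZTW1 (M, mega). Of 5532 genes with a mean RPKM (reads per kilobase of coding length and per M reads) of at least 1, the median log2 ratio was −0.02. Each strain had 1 library, so differences were not checked against replicates and no p-values are given. A gene is called lower or higher in ZGR3 below only where the exact 95% interval of its fold in reads per total reads excluded equality. Such an interval covers counting error alone, so it compares these libraries and not the strains. By this rule 19.8% of the 5532 genes were lower in ZGR3 and 17.9% were higher.

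Of the 10 genes, 9 were lower in ZGR3 and 1, COX5B, was not called. The 9 genes were lower by between 1.14-fold, for COX9, and 1.47-fold, for CYC1, and none of the 10 was 2-fold apart. Together the 10 genes took 0.330% of all reads in ZGR3 (95% Clopper-Pearson interval 0.325 to 0.336) and 0.425% in ZTW1 (0.419 to 0.431), a sum 1.29-fold lower in ZGR3 (1.26 to 1.31). The median of their log2 ratios, taken on RPKM + 1, was −0.38. All 10 passed the filter on low values. Among all genes tested, 1.92% were at least 2-fold lower and 0.542% at least 2-fold higher.

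Intervals are narrow for genes with many reads, so such genes pass this rule more easily. COX7, the least read of the 10 genes after CYC7 and COX5B, had 1132 reads in both libraries together. Among the 1292 genes tested with at least that many reads, 33.4% were lower in ZGR3, with a median log2 ratio of 0.03.

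**Figure D1:**
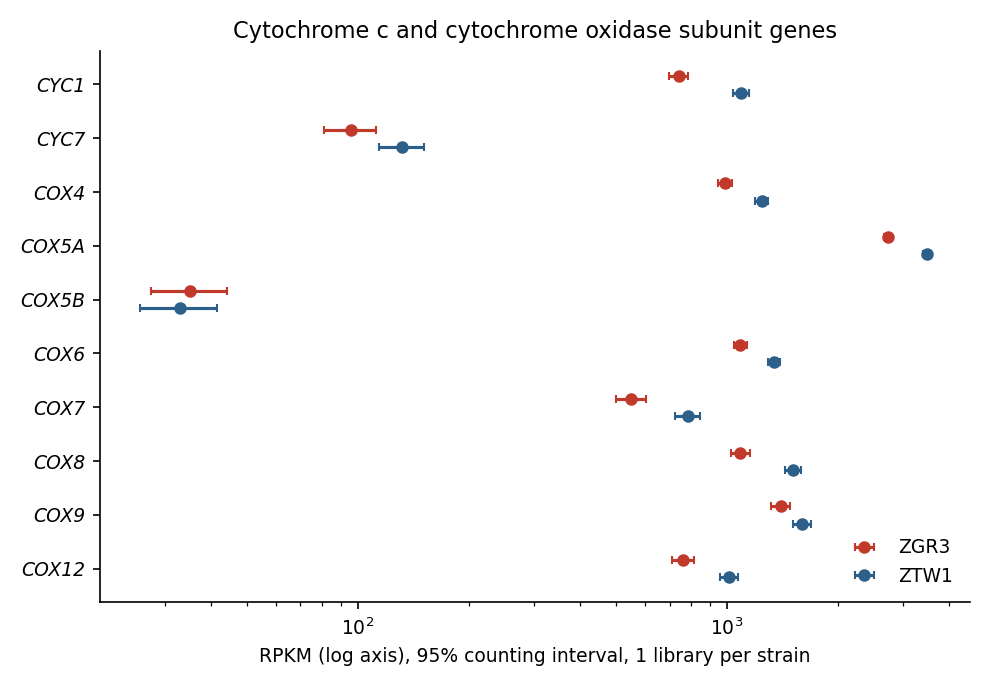
RPKM of each gene on a log axis in ZGR3 (red) and ZTW1 (blue), 1 library per strain, with exact 95% counting intervals. Every gene but COX5B lies further left in ZGR3, and CYC7 and COX5B lie to the left of the other 8 genes in both libraries.

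Cytochrome c transcripts were lower in ZGR3 for both isoforms. CYC1, which encodes the main form in aerobic cells, had 1127 reads and 741 RPKM in ZGR3, against 1676 reads and 1090 RPKM in ZTW1. This was 1.47-fold lower (95% counting interval 1.36 to 1.59), the log2 ratio furthest from 0 of the 10 genes (−0.56). CYC7, the hypoxic form, had 151 reads and 95.8 RPKM in ZGR3, against 210 reads and 132 RPKM in ZTW1. It was 1.38-fold lower (1.11 to 1.71), with the wider interval that its smaller number of reads gives. Summed over both genes, cytochrome c stood at 837 RPKM in ZGR3 and 1221 RPKM in ZTW1.

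The subunit that exists in a pair of forms was represented almost wholly by COX5A. COX5A had 5814 reads and 2729.9 RPKM in ZGR3, against 7470 reads and 3469 RPKM in ZTW1, 1.27-fold lower (1.23 to 1.32). It was the most abundant of the 10 transcripts per coding length in both libraries and ranked 47 among all listed genes in ZGR3 and 36 in ZTW1. COX5B, the hypoxic form, had 74 reads and 35.2 RPKM in ZGR3 and 70 reads and 32.9 RPKM in ZTW1. Its fold of 1.07 had an interval of 0.760 to 1.504, so no difference could be detected with this number of reads. The interval holds both no difference and the fold of COX5A, 0.787 (ZGR3 over ZTW1).

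The balance between aerobic and hypoxic forms can be read within a library, where it does not depend on scaling. CYC7 made up 11.4% of the summed RPKM of the cytochrome c pair in ZGR3 (95% interval carried over from the reads, 9.78 to 13.3) and 10.8% in ZTW1 (9.44 to 12.3). The ratio of CYC1 to CYC7 reads in ZGR3 was 0.935 times that in ZTW1, with an exact interval of 0.745 to 1.18. COX5B made up 1.27% of its pair in ZGR3 (1.001 to 1.596) and 0.941% in ZTW1 (0.734 to 1.19). Per coding length COX5A exceeded COX5B 77.5-fold in ZGR3 (61.7 to 98.9) and 105-fold in ZTW1 (83.3 to 135). The ratio of COX5A to COX5B reads in ZGR3 was 0.736 times that in ZTW1 (0.522 to 1.04). For both pairs the interval held 1, so no shift between aerobic and hypoxic forms was detectable at this depth.

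Each of the 4 isoform genes had reads along most of its length. Coverage of the coding sequence, as the authors computed it, was 97.37% for CYC7 in both libraries, and for COX5B 92.98% in ZGR3 and 96.71% in ZTW1. CYC1 was covered over 98.79% and COX5A over 99.78% in both. The counts are of uniquely assigned reads, per the file headers, so reads that fit both genes of a pair may be missing from either.

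**Figure D2:**
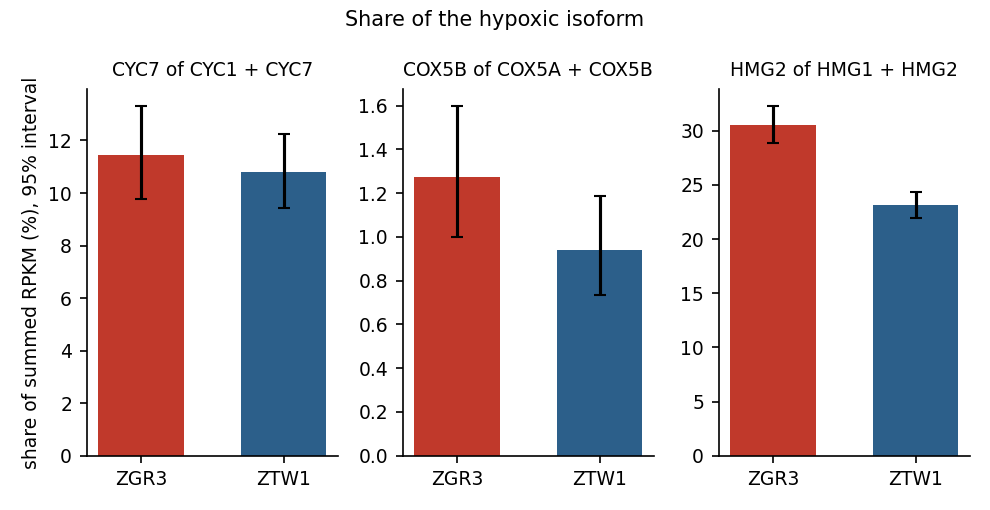
Share of the hypoxic isoform in the summed RPKM of its pair, in percent, in ZGR3 (left, red) and ZTW1 (right, blue), with 95% intervals that cover counting error only. The intervals of both libraries overlap for CYC7 and COX5B and do not overlap for HMG2, where the share was 30.5% in ZGR3 and 23.1% in ZTW1.

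The same reading was made for 3 other yeast gene pairs with an aerobic and a hypoxic member. HMG1 and HMG2 encode the reductase that commits carbon to sterol synthesis. HMG1, the aerobic form, was 1.77-fold lower in ZGR3 (1.67 to 1.86) and HMG2 was 1.21-fold lower (1.10 to 1.32). HMG2 thus took 30.5% of the pair in ZGR3 (28.9 to 32.2) and 23.1% in ZTW1 (21.9 to 24.3), and the ratio of HMG1 to HMG2 reads in ZGR3 was 0.683 times that in ZTW1 (0.615 to 0.759). PET9, the main ADP/ATP carrier, was 1.45-fold lower in ZGR3 (1.396 to 1.497), while its hypoxic partner AAC3 had 2 reads in ZGR3 and 3 in ZTW1. HYP2, the aerobic form of translation factor eIF5A, was 1.19-fold lower (1.15 to 1.23). Its partner ANB1 had 0 reads in ZGR3 and 3 in ZTW1. The 0 reads allow a share of the pair of up to 0.0446% at a floor of 3 counts, and the exact 95% interval reaches 0.0548%. No fold is given for AAC3 or ANB1, which were at or under a floor of 3 counts in both libraries. HYP2 and ANB1 are near-identical copies, and reads that fit both may be missing from either, which makes both values uncertain.

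The other 6 oxidase subunit genes were all lower in ZGR3. COX4 encodes a zinc-binding subunit on the matrix side. It had 2131 reads and 988 RPKM in ZGR3, against 2704 reads and 1240 RPKM in ZTW1, 1.25-fold lower (1.19 to 1.33). COX6, also on the matrix side, had 2238 reads and 1086 RPKM in ZGR3, against 2794 reads and 1341 RPKM in ZTW1, 1.23-fold lower (1.17 to 1.31). These and COX5A had log2 ratios within 0.05 of one another, at −0.33, −0.30 and −0.35.

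COX7, COX8 and COX9 encode small subunits that each span the inner membrane. COX7 had 464 reads and 550.0 RPKM in ZGR3, against 668 reads and 783 RPKM in ZTW1, 1.42-fold lower (1.26 to 1.61). COX8 had 1188 reads and 1087 RPKM in ZGR3, against 1669 reads and 1511 RPKM in ZTW1, 1.39-fold lower (1.29 to 1.498). COX9 had 1159 reads and 1397 RPKM in ZGR3, against 1340 reads and 1597 RPKM in ZTW1, and was lower by the least of the 9 called genes, 1.14-fold (1.06 to 1.24). COX12, whose product faces the intermembrane space, had 883 reads and 760.1 RPKM in ZGR3, against 1191 reads and 1014 RPKM in ZTW1, 1.33-fold lower (1.22 to 1.46).

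**Figure D3:**
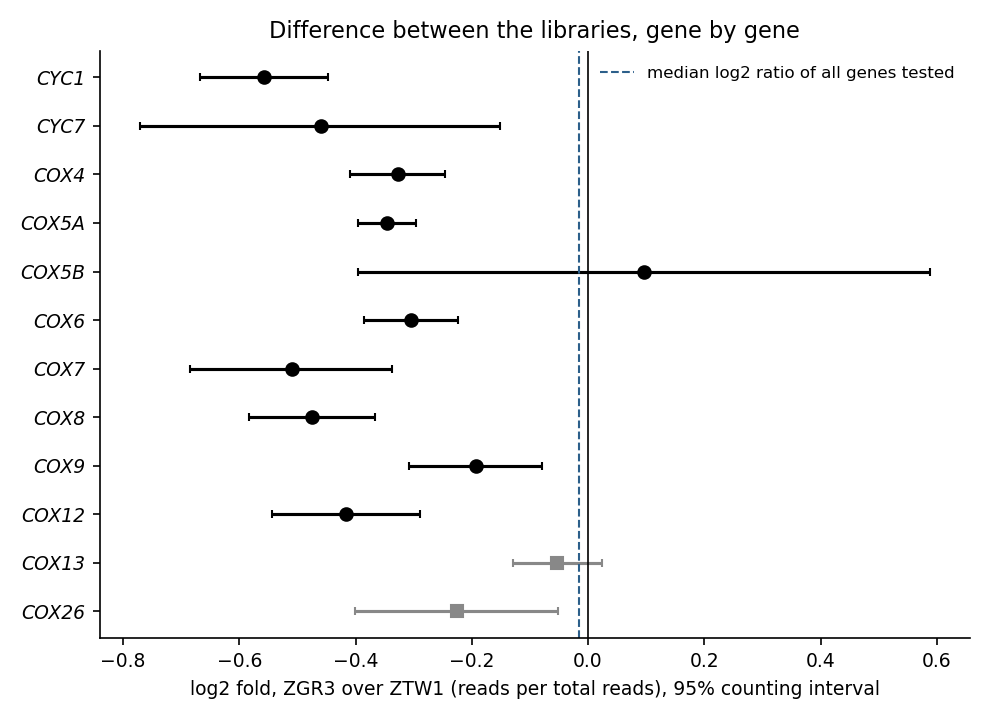
Log2 fold in reads per total reads, ZGR3 over ZTW1, with exact 95% counting intervals for the 10 genes (circles) and for COX13 and COX26 (squares). Intervals of 9 of the 10 genes and of COX26 lie wholly below 0, and those of COX5B and COX13 hold 0. The dashed line marks the median of all genes tested, −0.02.

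Small differences among the members' folds exceeded counting error in some pairs. For the 45 pairs of members, the ratio of one gene's reads to the other's was compared between the libraries, and the 95% interval, not adjusted for the number of pairs, excluded 1 in 16. CYC1, COX8 and COX9 each took part in 5 of these and COX5B in 4. CYC1 relative to COX9 in ZGR3 was 0.777 times its value in ZTW1 (0.696 to 0.868), and CYC1 relative to COX4 was 0.853 times (0.775 to 0.939). CYC7 took part in none, and its intervals were wide. For the 3 pairs among COX4, COX5A and COX6 the interval held 1. Without replicates, how far such ratios vary between cultures of 1 strain was not measured. The 45 pairs share genes, and no like count was made for pairs of other genes.

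Subunits of the oxidase are present in equal numbers in the assembled enzyme, but the RPKM of their genes differed. The intervals below cover counting error only. Bias between genes of unlike length or sequence was not tested, so these ratios may not be those of transcript numbers. Among the 6 subunit genes outside the isoform pairs, the highest RPKM, that of COX9, was 2.54 times the lowest, that of COX7, in ZGR3 and 2.04 times in ZTW1. The coefficient of variation of their RPKM was 30.0% in ZGR3 and 24.6% in ZTW1. In ZGR3 the order per coding length was COX5A, COX9, COX8, COX6, COX4, COX12, CYC1, COX7, CYC7 and COX5B. Neighbours in that order differed beyond counting error except COX8 and COX6, at a ratio of 1.001 (0.932 to 1.07), and COX12 and CYC1, at 1.03 (0.938 to 1.12). The order in ZTW1 was the same except that CYC1 stood above COX12, at a ratio of 1.07 (0.997 to 1.16), which held 1. COX9 and COX8 also could not be told apart there, at 1.06 (0.983 to 1.14). COX7, the lowest of the 8 abundant transcripts, stood 5.74-fold above CYC7 in ZGR3 (4.77 to 6.95) and 5.94-fold above it in ZTW1 (5.08 to 6.98).

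All 10 genes are short, with coding lengths of 180 to 468 bases, and short genes were lower in ZGR3 in general. When genes were divided by coding length into 10 classes, the median log2 ratio was −0.15 for the shortest class and 0.09 for the longest, and it was −0.14 for the 647 genes tested no longer than 468 bases. Of those 647 genes, 23.3% were lower by the counting rule and 63.2% had a log2 ratio below 0, against 52.0% of all genes tested. After subtraction of a running median over genes ordered by coding length, the median log2 ratio of the 10 genes was −0.24, and 9 of 10 were still below 0. CYC1 was then at −0.42, COX7 at −0.32, CYC7 at −0.31 and COX8 at −0.29. COX9 was at −0.0054, so its log2 ratio of −0.19 lay on the running median. That median was the same, −0.19, for COX7, COX8, COX9 and COX12, with coding lengths of 180 to 252 bases. It thus did not follow length among these short genes, and a trend for genes of exactly the length of COX9 was not measured. The part of the length trend in the lower levels of the members other than COX9 was not tested beyond the subtraction of the running median.

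**Figure D4:**
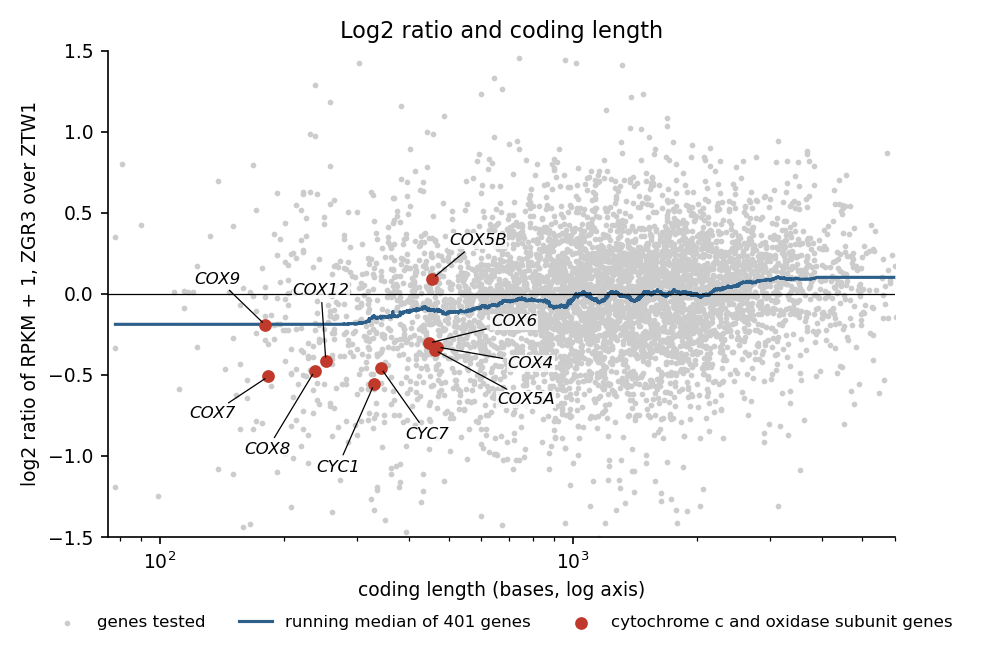
Log2 ratio of RPKM + 1, ZGR3 over ZTW1, against coding length on a log axis, for genes tested (grey), a running median over genes ordered by coding length (line) and the 10 genes (red). The 85 genes beyond ±1.5 or longer than 6000 bases are not drawn. COX9 lies on the line, COX5B above it and the other 8 below it.

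The members lie on 9 chromosomes, COX8 and COX12 sharing chromosome XII, and no annotated gene of the R64 assembly overlaps any of them. The median log2 ratio of the 24 nearest genes was between −0.07, for COX5A and COX5B, and 0.13, for COX9. With that median subtracted, CYC1 was at −0.67, COX8 at −0.60 and COX9 at −0.33, and the median of the 10 genes remained −0.38.

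COX13 and COX26 encode further nuclear subunits of the oxidase. COX13, a peripheral subunit, had 2706 reads and 1505 RPKM in ZGR3 and 2839 reads and 1562 RPKM in ZTW1. Its fold of 0.964 had an interval of 0.914 to 1.02, so a difference was not detectable. Relative to the summed reads of COX4, COX5A, COX6, COX7, COX8, COX9 and COX12, COX13 in ZGR3 was 1.23 times its value in ZTW1 (1.16 to 1.30). This comparison was chosen after its value had been seen. COX26, listed in the deposited tables under the name YDR119W-A, had 500 reads in ZGR3 and 591 in ZTW1, 1.17-fold lower (1.04 to 1.32).

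The mitochondrially encoded core subunits could not be compared. COX1 had 5 reads in ZGR3 and 2 in ZTW1, and COX2 had 1 and 0 reads in ZGR3 and ZTW1, below the filter on low values in libraries made from poly(A) RNA. COX3 was looked up by name and was not found among the genes with reads in at least 1 library.

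Of 26 genes for assembly factors of the oxidase, 17 were lower in ZGR3, none was higher and 9 were not called. The share lower among all genes tested was 19.8%, and 17.9% were higher. The median log2 ratio of the 26 genes was −0.48. CMC1 and COX17, both for small proteins of copper delivery to the oxidase, were the lowest. CMC1 had 26 reads in ZGR3 and 63 in ZTW1, 2.40-fold lower (1.496 to 3.94), and COX17 had 26 and 54 reads in ZGR3 and ZTW1, 2.05-fold lower (1.26 to 3.42). CMC1 lies on chromosome XI among genes with a median log2 ratio of −0.51, and stood at −0.71 after that was subtracted. COX15, which makes heme a, was the most read assembly factor gene, with 2645 reads in ZGR3 and 3826 in ZTW1, 1.43-fold lower (1.36 to 1.504). COX23 and OXA1, the highest of the list, had log2 ratios of 0.34 and 0.08, and their intervals held equality.

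Translation of the mitochondrial COX1, COX2 and COX3 messages needs dedicated nuclear activators. Of 6 such genes, 4 were lower in ZGR3 and 2 were not called, against 19.8% lower among all genes tested. The median log2 ratio of the 6 was −0.47. MSS51, the activator of COX1 translation that couples it to assembly, had 534 reads in ZGR3 and 775 in ZTW1, 1.44-fold lower (1.28 to 1.61). PET54, for COX3, was 1.38-fold lower (1.01 to 1.89), and PET494, also for COX3, had 298 reads in ZGR3 and 301 in ZTW1.

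Heme attachment and heme synthesis genes were also examined. CYC3, the lyase that joins heme to cytochrome c, was 1.19-fold lower in ZGR3 (1.03 to 1.37). CYT2, the lyase for cytochrome c1, had 118 reads in ZGR3 and 246 in ZTW1, 2.06-fold lower (1.65 to 2.59). The genes around CYT2 on chromosome XI had a median of −0.36 and CYT2 stood at −0.67 after subtraction. CYC2, which acts beside the lyases, had 124 reads in ZGR3 and 120 in ZTW1. Of 8 heme biosynthesis genes, 5 were lower, against 19.8% of all genes tested, and none was higher. The median log2 ratio of the 8 was −0.28. HEM3 was 1.55-fold lower (1.30 to 1.85) and HEM2 1.46-fold lower (1.26 to 1.70), while HEM4 and HEM14 had log2 ratios of 0.16 and 0.13 and were not called.

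Of the 10 regulators listed, 3 were lower in ZGR3 and none was higher, with a median log2 ratio of −0.05. By the same rule 19.8% of all genes tested were lower, and 33.4% of those with at least as many reads as COX7. HAP4, the regulatory subunit of the Hap complex, had 1855 reads in ZGR3 and 2203 in ZTW1, 1.17-fold lower (1.10 to 1.25). It lies on chromosome XI, where the 24 nearest genes had a median log2 ratio of −0.30, and stood at 0.07 after that was subtracted. HAP1 was 1.16-fold lower (1.096 to 1.24), with a log2 ratio of −0.22. HAP2, HAP3 and HAP5, the DNA-binding subunits, had log2 ratios of 0.18, −0.22 and −0.03, and a difference was not detectable for any of them. ROX1 had 1196 reads in ZGR3 and 1262 in ZTW1, a fold of 0.958 (0.885 to 1.04) that held equality. MOT3, another repressor of hypoxic genes, had a log2 ratio of 0.08.

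Of 4 genes whose products exchange electrons with cytochrome c, 3 were lower in ZGR3 and 1 was not called. The share lower was 19.8% among all genes tested and 33.4% among those with at least as many reads as COX7. CYT1, the cytochrome c1 of complex III, was 1.21-fold lower in ZGR3 (1.15 to 1.26). CYB2, the lactate dehydrogenase that feeds electrons to cytochrome c, was 1.29-fold lower (1.25 to 1.34), and ERV1, a sulfhydryl oxidase of the intermembrane space, was 1.52-fold lower (1.23 to 1.88). CCP1, cytochrome c peroxidase, had 4068 reads in ZGR3 and 3945 in ZTW1, a fold of 1.04 (0.998 to 1.09) that held equality.

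The other complexes are set beside the 10 genes as a description, since 1 library per strain gives no test of a difference between lists. For the counts that follow, 19.8% of all genes tested were lower, and 33.4% of those with at least as many reads as COX7. All 9 complex III genes were lower in ZGR3, with a median log2 ratio of −0.31, RIP1 and QCR6 the lowest at −0.51 and −0.47 and QCR2 and QCR9 the highest at −0.13 and −0.15. All 4 complex II genes were lower, with a median of −0.44, SDH3 at −0.83 and SDH1 at −0.69, both on chromosome XI beside genes with a median of −0.50, and SDH4 at −0.19 and SDH2 at −0.09. Of 16 ATP synthase genes 14 were lower, with a median of −0.30, ATP20 and ATP19 the lowest at −0.79 and −0.49. ATP17 and INH1, an inhibitor of the synthase, were not called, at −0.07 and −0.0050. After subtraction of the length trend the medians were −0.24 for the 10 cytochrome c and oxidase genes, −0.39 for complex II, −0.19 for complex III and −0.11 for ATP synthase. With the median of the 24 nearest genes subtracted instead, they were −0.38, −0.23, −0.28 and −0.29, in the same order of lists. Which list was lowest thus depended on the subtraction.

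**Figure D5:**
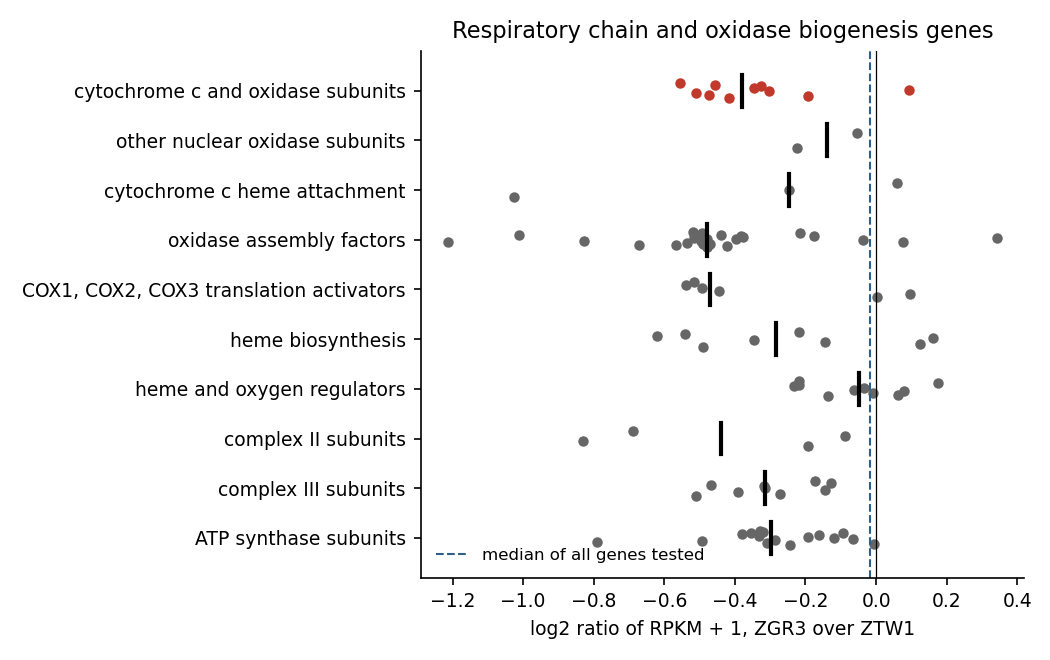
Log2 ratio of RPKM + 1, ZGR3 over ZTW1, for each gene (points) of the 10 cytochrome c and oxidase genes (red) and of lists of related genes (grey), with the median of each list as a bar. Medians of the lists drawn lie between −0.48 and −0.05, the aerobic and hypoxic partners of other pairs and the genes exchanging electrons with cytochrome c are not drawn, and the dashed line marks the median of all genes tested, −0.02.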

How the data were processed

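Per the labels' protocols, hot phenol RNA was given 30 min of DNase and selected for poly(A). Per the file headers, each deposited table holds a count of unique reads for every gene, RPKM as computed by the authors from count, length and library total, and the authors' coverage, a percent of the listed length. The counts summed to the totals in the headers, and lengths are called coding length, since each was a multiple of 3. Genes absent from 1 table were set to 0. The submitters' processing notes name sacCer2 as the build. No aligner or strand handling is given in the sources used here, and antisense reads cannot be told apart. Gene IDs were matched to R64 for names, chromosomes, gene order and overlaps only (5653 of 5659 matched). Gene order and overlaps rest on R64 positions, and no sequence was taken from R64 because the builds differ.

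Log2 ratios were log2((RPKM ZGR3 + 1)/(RPKM ZTW1 + 1)), which slightly understates differences of low genes. Folds are of reads per total reads, with exact 95% intervals (Clopper-Pearson, on the share of a gene's reads in ZGR3), and ratios of ratios carry exact conditional intervals of the odds ratio. Without molecular identifiers, these intervals and floors reflect counting error only. The members and lists were chosen with earlier results of these data known. Named were all members, COX13, COX26, both genes of each isoform pair, HAP1 to HAP5, ROX1, and the 2 highest and 2 lowest genes of each other list with a mean RPKM of at least 10; COX15 was added after its values were seen. Alternatives used edgeR 4.0.16 and DESeq2 1.42.0 for scaling only, and no test was run. Steps were tested on simulated data. Python 3.11.15, scipy 1.17.1 and R 4.3.3 were used.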

Additional observations from a re-analysis of the deposited data

How the results depend on the processing

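No paired analysis was possible because each strain had 1 library. Under 10 alternative settings (pseudocounts, scaling, filters, unit, coding length and neighbouring genes), 9 of the 10 genes had a log2 ratio below 0 and COX5B was above it in each. The filters leave each member's value unchanged by construction. Centring and scaling moved all genes by nearly the same small amount, so these settings say little about the signs. The median of the 10 genes moved furthest, to −0.24, when the running median by coding length was subtracted, and lay between −0.36 and −0.38 under the other 9. By the counting rule 9 of the 10 genes were lower also with TMM scaling, DESeq2 size factors or 99% intervals. With RPKM + 1 in place of reads, the ratio of ratios was 0.933 for CYC1 to CYC7 and 0.738 for COX5A to COX5B. Counts over all genes, 30 at least 2-fold higher and 106 lower in ZGR3, became 16 and 51 with a pseudocount of 5 RPKM, 14 and 61 with a filter at a mean RPKM of 10, 9 and 32 under a 3-fold rule and 201 and 409 under a 1.5-fold rule. These settings drop low genes, damp their ratios or move the limit by construction. Depth limits COX5B most, with 74 reads in ZGR3 and 70 in ZTW1.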
